A study of Mus musculus with 4 samples.

Results

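The chemokine, oxysterol and sphingosine-1-phosphate (S1P) receptors that place B cells within lymphoid tissue were examined in RNA-seq data of follicular B cells with and without the transcription factor Ets1. They were taken as a fixed set of 10 genes by symbol, namely Cxcr5, Ccr7, Cxcr4, Ccr6, Cxcr3, Gpr183, S1pr1, S1pr2, S1pr3 and S1pr4, and all 10 were found among the 23305 genes with a unique symbol in the files. RNA came from B220+ CD23-high CD21-low B cells that lacked CD80 and switched isotypes (IgA, IgE, IgG1, IgG2a, IgG2b and IgG3), sorted from the spleens of female mice. There were 2 WT libraries, from C57BL/6 mice, and 2 Ets1-/- libraries, from mice on a C57BL/6 x 129Sv background. Strain and genotype therefore change together and cannot be told apart, and neither the ages of these mice nor how many contributed to a library is stated in the sources used here. The methods describe the 2 libraries of a genotype as biological replicates. The p-values set a difference against the spread between such libraries, estimated in part from other genes of similar level.

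These receptors are G protein-coupled and mostly signal through Gi proteins. Cxcr5 draws B cells into follicles along Cxcl13, while Ccr7, the receptor of Ccl19 and Ccl21, draws cells toward the T cell zone, and Gpr183 follows dihydroxylated oxysterols to the edges of the follicle. S1pr1 lets lymphocytes leave tissues toward S1P-rich blood and lymph, S1pr2 holds germinal centre B cells in place, and S1pr3 is best known in marginal zone B cells. Cxcr4, Ccr6 and Cxcr3 respond to Cxcl12, to Ccl20 and to the interferon-induced chemokines Cxcl9, Cxcl10 and Cxcl11.

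Expression is given as FPKM, the fragments of a gene scaled for transcript length and for library size, which allows levels of different genes to be set side by side. Differences between genotypes were tested with limma on log2(FPKM + 1) across the 10949 genes with a mean of at least 1 FPKM in either genotype, with Benjamini-Hochberg adjustment over all of them. Both a log2 fold change of at least 1 in size and an adjusted p up to 0.05 were required for a call. From the spacing of values under 0.05 FPKM the libraries differed in depth by up to about 2-fold, and each genotype held 1 deeper and 1 shallower library. Ets1 itself was listed at 231 and 275 FPKM in the WT and 229 and 229.8 FPKM in the Ets1-/- libraries, so this value over the whole gene, which a mutation of some exons can leave in place, does not check the genotype labels. Follicular B cell markers were abundant in every library, with Fcer2a, which encodes CD23, between 488 and 664 FPKM. The summed level of 11 neutrophil markers was 115.9 and 94.7 FPKM in WT but 2576 and 707 FPKM in Ets1-/- libraries. All 11 were higher in both Ets1-/- libraries, against 19.4% of all tested genes. Of the 11, 4 (Mmp8, Mmp9, Elane and Mpo) entered the test through the Ets1-/- mean alone, so the filter fixed their higher mean. Ngp, Ltf and Camp passed both thresholds, against 0.877% of all tested genes called as higher. The most abundant of the 11 over the 4 libraries, S100a8, stood at 43.9 and 39.2 FPKM in WT against 1003 and 254 FPKM in Ets1-/- libraries. In bulk RNA, fewer cells of a type and less RNA per cell cannot be told apart.

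No positioning receptor passed both thresholds, and none reached a 2-fold change (0 of 10, against 4.68% of all tested genes). The calls were 0 of 10 by limma, where 1.7% of all tested genes were called, 0.877% as higher and 0.822% as lower. An unadjusted p under 0.05 was found for 3 receptors, Cxcr4, Ccr7 and Ccr6, against 13.3% of all tested genes. Adjusted p-values of the 10 lay between 0.162 and 0.892 from limma. All 10 receptors had a mean of at least 1 FPKM in both genotypes, so none entered the test through 1 genotype alone. In 5 receptors the genotypes did not overlap, 3 of them (Cxcr4, Ccr7 and S1pr1) with both Ets1-/- values above both WT values and 2 (Ccr6 and Cxcr5) below, and over all tested genes 41.6% did not overlap, 19.4% above and 22.2% below. The median absolute log2 difference was 0.33 over the 10 receptors and 0.16 over all tested genes. An exact permutation test of a single gene cannot fall below a two-sided p of 0.333 with 2 libraries against 2, so no such test was made.

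**Figure D1:**
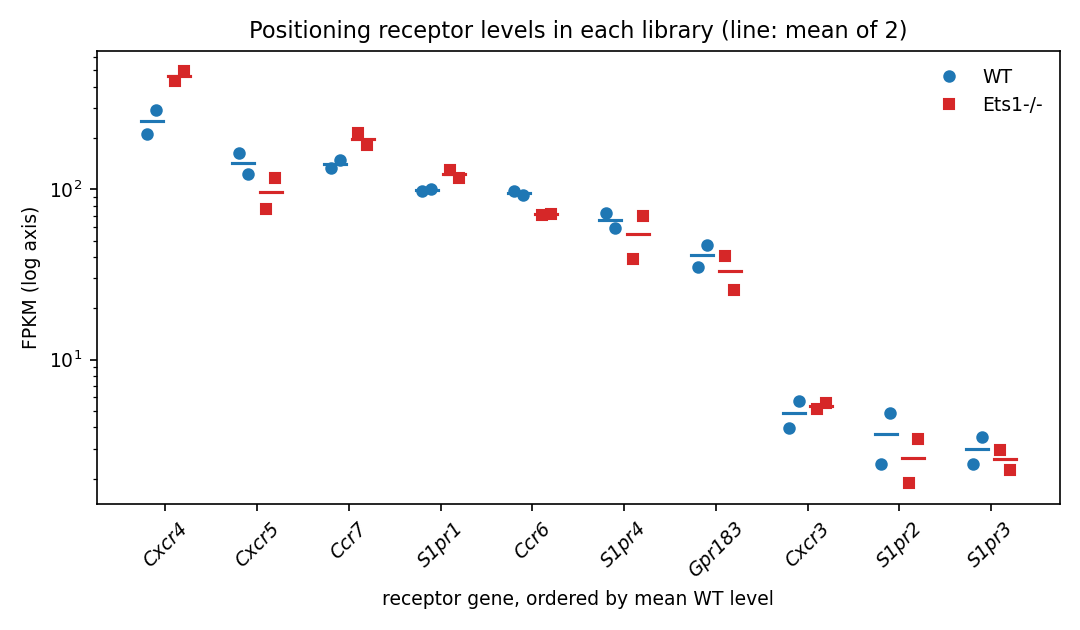
FPKM of the 10 receptor genes in each library on a log axis, ordered by mean WT level, with WT as circles, Ets1-/- as squares and the mean of the 2 libraries as a line. The 7 abundant receptors lie above 25 FPKM in every library and Cxcr3, S1pr2 and S1pr3 lie under 6 FPKM.

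The receptors fell into an abundant and a scarce group. In WT cells Cxcr4 was highest at 251 ± 57.3 FPKM (SD, n = 2), followed by Cxcr5 at 143 ± 28.4, Ccr7 at 140.5 ± 10.9, S1pr1 at 98.8 ± 1.71, Ccr6 at 95.3 ± 3.0, S1pr4 at 66.5 ± 9.50 and Gpr183 at 41.1 ± 8.38. The scarce receptors were Cxcr3 at 4.84 ± 1.27 FPKM, S1pr2 at 3.65 ± 1.73 and S1pr3 at 2.98 ± 0.751. Values of Cxcr5 and Ccr7 overlapped, as did those of Cxcr3 with S1pr2 and of S1pr2 with S1pr3, while the other neighbours in this order did not overlap. By rank, 97.0% of the tested genes had a lower WT mean than Cxcr4 and 16.1% a lower one than S1pr3. In Ets1-/- cells the order was Cxcr4, Ccr7, S1pr1, Cxcr5, Ccr6, S1pr4, Gpr183, Cxcr3, S1pr2 and S1pr3, so that Ccr7 and S1pr1 stood above Cxcr5. There the neighbours S1pr4 and Gpr183 overlapped, as did S1pr2 and S1pr3.

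Cxcr5, the receptor that brings B cells into the follicle, was at 163 and 123 FPKM in WT and at 77.2 and 116.1 FPKM in Ets1-/- libraries. Both Ets1-/- values were below both WT values, but the nearest values of the genotypes differed by less than the replicates within either genotype. Its log2 fold change was -0.58 (95% interval -1.25 to 0.09) with an adjusted p of 0.458 from limma, which does not pass, and it was -0.28 without Ets1-/- replicate 1, -0.37 without WT replicate 1 and -0.87 without Ets1-/- replicate 2. Cxcr5 lies on the minus strand of chromosome 9 from 44319871 to 44334504 of mm9, 11.8 Mb from Ets1 on the same chromosome.

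Ccr7, the receptor that works against Cxcr5 at the border of the follicle and the T cell zone, had 133 and 148 FPKM in WT and 215 and 183 FPKM in Ets1-/- cells. Both Ets1-/- values were above both WT values, and the nearest values of the genotypes lay further apart than the replicates of either. Ccr7, on chromosome 11 from 99005510 to 99016391, had a log2 fold change of 0.50 (95% interval 0.06 to 0.93), with limma giving an unadjusted p of 0.0316 and adjusted p = 0.288. T cells also express Ccr7, and the summed level of 9 T cell markers was 104 and 84.7 FPKM in WT and 89.9 and 108 FPKM in Ets1-/- libraries. Their part in the Ccr7 values was not tested.

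Gpr183, also known as EBI2, had 35.2 and 47.1 FPKM in WT and 40.8 and 25.7 FPKM in Ets1-/- libraries. The genotypes overlapped, and the log2 difference of -0.32 (95% interval -1.01 to 0.38, adjusted p = 0.754 from limma) was within the spread of the replicates. Gpr183, on the minus strand of chromosome 14 from 122351553 to 122364415, lies inside the span of Ubac2 on the opposite strand and shares 0 exon bases with it.

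Cxcr4, which responds to Cxcl12 and is known for retaining cells in the bone marrow and in the dark zone of germinal centres, showed the widest difference of the 10. It was at 211 and 292 FPKM in WT and at 431 and 494 FPKM in Ets1-/- libraries, a ratio of the means of 1.84. Both Ets1-/- values were well above both WT values. On the log2 scale the difference was 0.89 (SE 0.22, 95% interval 0.32 to 1.47; limma unadjusted p = 0.0102, adjusted p = 0.162), so Cxcr4 did not pass either threshold, and 5.74% of tested genes had a larger change in size. Neutrophils express Cxcr4 too. The summed neutrophil markers were at 2576 and 707 FPKM in Ets1-/- replicates 1 and 2, and Cxcr4 was at 431 and 494 FPKM. The log2 fold change of Cxcr4 was 0.99 without Ets1-/- replicate 1 and 0.79 without Ets1-/- replicate 2. The part of neutrophil RNA in the Cxcr4 values was not tested. Cxcr4 lies on the minus strand of chromosome 1 from 130484776 to 130488870 of mm9. The genes whose centred values across the 4 libraries were most like those of Cxcr4 were Lysmd2, Pnp2 and Bckdhb, by a sum of squared log2 differences of 0.0133, 0.0134 and 0.0176.

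Ccr6, the receptor of Ccl20, differed little within genotypes. It had 97.4 and 93.1 FPKM in WT and 71.1 and 71.8 FPKM in Ets1-/- libraries, which is 25.0% less by the mean. The replicates of each genotype nearly coincided and the genotypes stood apart. Its log2 fold change of -0.41 (95% interval -0.76 to -0.06) came with an unadjusted p of 0.0289 (limma adjusted p = 0.273), and the interval excludes a 2-fold fall. Ccr6 is on the plus strand of chromosome 17 from 8429077 to 8449992.

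Promoters are shown for Cxcr4 and Ccr6, the receptor with the widest difference and the one whose genotypes were best separated relative to replicate spread, because Ets1 belongs to a family of factors that bind a GGAA core. RefSeq promoter windows (GRCm38.p6, 250 bases before to 50 bases after a start) were available for 7 of the 10 receptors in 8 entries, Ccr6 having 2, and there was no entry for Cxcr5, Ccr7 or S1pr1. Each sequence is written 5' to 3' on the strand of the gene with GGAA or its reverse complement TTCC in capitals.
Cxcr4, chr1:128592250-128592549, minus strand: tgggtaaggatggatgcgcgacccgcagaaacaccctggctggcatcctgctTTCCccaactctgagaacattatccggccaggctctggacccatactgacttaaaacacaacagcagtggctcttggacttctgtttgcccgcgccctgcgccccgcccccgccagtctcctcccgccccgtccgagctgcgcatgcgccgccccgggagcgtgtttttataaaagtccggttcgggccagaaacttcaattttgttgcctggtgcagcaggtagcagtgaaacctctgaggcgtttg
Ccr6 first start, chr17:8235793-8236092, plus strand: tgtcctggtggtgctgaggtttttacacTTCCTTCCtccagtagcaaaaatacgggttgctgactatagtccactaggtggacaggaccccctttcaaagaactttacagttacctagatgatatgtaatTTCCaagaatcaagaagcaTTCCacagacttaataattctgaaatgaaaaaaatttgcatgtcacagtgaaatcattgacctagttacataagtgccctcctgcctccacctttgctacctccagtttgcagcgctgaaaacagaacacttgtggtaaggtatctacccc
Ccr6 second start, chr17:8242276-8242575, plus strand: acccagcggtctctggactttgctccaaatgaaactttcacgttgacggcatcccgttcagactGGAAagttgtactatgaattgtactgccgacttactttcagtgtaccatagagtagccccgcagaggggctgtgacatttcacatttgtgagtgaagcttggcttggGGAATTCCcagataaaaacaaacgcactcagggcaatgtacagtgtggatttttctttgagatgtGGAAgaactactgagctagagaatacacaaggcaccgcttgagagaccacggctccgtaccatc

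The Cxcr4 window held 1 match to the core and each Ccr6 window held 4, against a median of 3 over 32851 promoter windows of the same length, of which 96.0% held at least 1. Among the other receptors the core was matched 5 times for Cxcr3, 4 times for S1pr2, 3 times for Gpr183 and 2 times each for S1pr3 and S1pr4. Longer forms that contain the core, searched on both strands, were CCGGAA and AGGAAG. The first form was found in 1 of the 8 windows, that of S1pr2, and in 14.9% of all windows. The other form was found in 2 of the 8 windows, the first Ccr6 window and that of Cxcr3, and in 35.4% of all windows. A match describes letters only, and no binding was measured in these files. Binding was measured by the study in separate Ets1 ChIP-seq of splenic B cells. There Cxcr4 and Cxcr5 are named among genes where sites of Ets1 and of the factor Irf4 overlap. Those data were not used here.

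Cxcr3, a receptor of inflammatory chemokines that is better known on effector T cells, was scarce, with 3.95 and 5.74 FPKM in WT and 5.11 and 5.57 FPKM in Ets1-/- libraries. Both Ets1-/- values lay between the WT values. The log2 difference of 0.13 (95% interval -0.37 to 0.64, adjusted p = 0.887 from limma) excludes a 2-fold change in either direction on this scale, which draws the changes of low genes toward 0. Cxcr3 is on chromosome X from 98926874 to 98929608. NK cells carry Cxcr3 as well, and the summed level of 6 NK cell markers was 23.9 and 13 FPKM in WT and 3.73 and 8.92 FPKM in Ets1-/- libraries. Their part in the Cxcr3 value was not tested.

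Among the S1P receptors, S1pr1 was the most abundant, at 97.6 and 100.1 FPKM in WT and 130 and 117 FPKM in Ets1-/- libraries. Both Ets1-/- values were above the WT values, which differed from each other by a factor of 1.02. The log2 fold change of S1pr1 was 0.32 (95% interval -0.06 to 0.69, unadjusted p = 0.0820, adjusted p = 0.470 from limma), so the difference did not pass and a 2-fold change in either direction lies outside the interval. S1pr1 is on the minus strand of chromosome 3 from 115413351 to 115417973.

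S1pr4, another abundant S1P receptor of lymphocytes, had 73.2 and 59.8 FPKM in WT and 39.3 and 69.8 FPKM in Ets1-/- libraries. The Ets1-/- replicates differed by a factor of 1.78 and straddled the lower WT value. Its log2 difference was -0.33 (95% interval -1.10 to 0.44, adjusted p = 0.776 from limma), and it turned to 0.076 without Ets1-/- replicate 1, so no direction is given. S1pr4 lies on chromosome 10 from 80961223 to 80962452.

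S1pr2, which confines germinal centre B cells, was at 2.43 and 4.87 FPKM in WT and at 1.88 and 3.43 FPKM in Ets1-/- libraries. The WT replicates alone differed by a factor of 2.01, and the genotypes overlapped (log2 difference -0.33, 95% interval -1.21 to 0.55, adjusted p = 0.821 from limma). A 2-fold fall of S1pr2 thus cannot be told from no change in these libraries. The 5 germinal centre markers summed to 12.1 and 24.4 FPKM in WT and 11.8 and 15.2 FPKM in Ets1-/- libraries, and their part in the S1pr2 values was not tested. S1pr2 lies on chromosome 9 from 20770396 to 20781237, 11.7 Mb from Ets1 on the other side of the gene from Cxcr5.

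S1pr3, the S1P receptor associated with marginal zone B cells, had the lowest mean of the 10 in both genotypes, with 2.45 and 3.51 FPKM in WT and 2.95 and 2.25 FPKM in Ets1-/- libraries. The genotypes overlapped, with a log2 difference of -0.14 (95% interval -0.67 to 0.39, adjusted p = 0.892 from limma). The 5 marginal zone markers summed to 206 and 245 FPKM in WT and 171 and 103 FPKM in Ets1-/- libraries. Of the 5, 2 (Cr2 and Dtx1) were lower without overlap and 0 higher, against 22.2% and 19.4% of all tested genes. The part of marginal zone B cells in the S1pr3 values was not tested. S1pr3 is on chromosome 13 from 51503987 to 51518166.

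**Figure D2:**
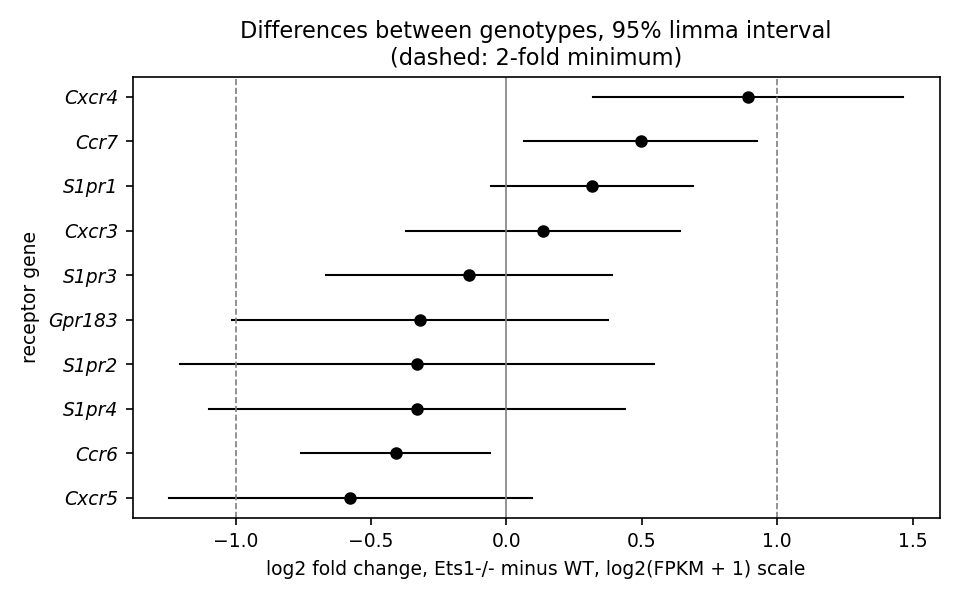
Log2 fold change of each receptor, Ets1-/- minus WT on the log2(FPKM + 1) scale, as a point with the 95% interval from limma as a line and the 2-fold minimum as dashed lines. Intervals of Cxcr4, Ccr7 and Ccr6 do not include 0, and those of Ccr7, Ccr6, S1pr1, Cxcr3 and S1pr3 lie wholly inside the dashed lines.

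Shares within a library do not depend on the scaling between libraries, but the share of a receptor also depends on the levels of the others. Of the summed FPKM of the 10 receptors, Cxcr4 made up 25.7% and 33.3% in WT and 42.5% and 45.4% in Ets1-/- libraries. The share of Cxcr5 was 19.9% and 14.0% in WT and 7.62% and 10.7% in Ets1-/- libraries, and that of Ccr6 was 11.9% and 10.6% against 7.01% and 6.60%. The sum itself was 819 and 877 FPKM in WT and 1014 and 1088 FPKM in Ets1-/- libraries. With lower FPKM of Cxcr5 and Ccr6 and a higher sum, their shares had to be lower and add nothing to their separate values. S1pr1 held 11.9% and 11.4% of the sum in WT and 12.8% and 10.8% in Ets1-/- libraries, with overlap. In ratios chosen after the values were seen, and so given with no test, Cxcr4 to Cxcr5 was 1.29 and 2.37 in WT against 5.58 and 4.25 in Ets1-/- libraries. Ccr7 to Cxcr5 was 0.814 and 1.21 in WT against 2.78 and 1.58 in Ets1-/- libraries. The genotypes could not overlap in either ratio, because both Ets1-/- libraries were higher in Cxcr4 and Ccr7 and lower in Cxcr5. The ratios therefore add nothing to the separate values on this point. Gpr183 to Cxcr5, at 0.216 and 0.383 in WT and 0.529 and 0.221 in Ets1-/- libraries, overlapped.

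**Figure D3:**
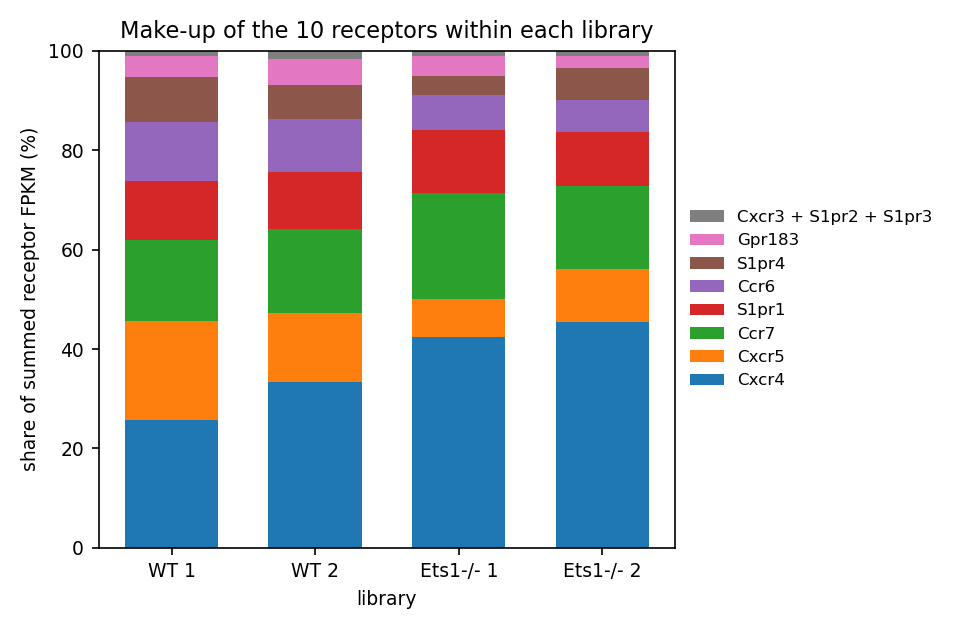
Share of each receptor in the summed FPKM of the 10 receptors, in percent, for each of the 4 libraries, with the 3 scarce receptors added together. The Cxcr4 segment takes 25.7% and 33.3% in WT and 42.5% and 45.4% in Ets1-/- libraries while the Cxcr5 segment is narrower in both Ets1-/- libraries.

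Transcripts of the chemokine ligands of these receptors were nearly absent from the sorted cells, and the lipid ligands are not measured by RNA. Of 8 chemokine ligands Ccl19, Ccl21a and Ccl20 were listed at 0 in every library, and the highest value was 1.02 FPKM, of Cxcl10, so 0 of 8 reached the test. Among 12 genes that make, export or break down the oxysterol and S1P ligands, 9 were tested, 1 rose and 0 fell, against 0.877% and 0.822% of all tested genes. Sgpp2, an S1P phosphatase, was at 2.94 and 2.72 FPKM in WT and 6.93 and 6.51 FPKM in Ets1-/- libraries. Its change on the log2 scale, 1.01 (adjusted p = 0.0482 from limma), was just past both thresholds and did not pass when any 1 library was left out, with adjusted p-values from 0.0947 to 0.289 by limma. Spns2, the S1P exporter and the most abundant of the list over the 4 libraries, had 17.6 and 17.5 FPKM in WT and 25.8 and 31.0 FPKM in Ets1-/- libraries without passing (adjusted p = 0.134 from limma). Sgpl1, the S1P lyase, whose WT mean was the highest of the list, had a log2 difference of -0.067 (adjusted p = 0.938 from limma). Ch25h and Cyp7b1, which make the oxysterol ligand of Gpr183, were not above 0.117 FPKM in any library.

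A list of other receptors for chemokines, lipids and related attractants is described by some of its members. Its most abundant gene was Cnr2, the cannabinoid receptor of B cells, at 94.2 and 81.9 FPKM in WT and 102 and 135 FPKM in Ets1-/- libraries (log2 difference 0.41, adjusted p = 0.485 from limma). Of its 26 genes 10 were tested, and 7 were higher and 0 lower without overlap, against 19.4% and 22.2% of all tested genes. Ccr1, Ccrl2, Ackr2, Ltb4r1 and Fpr2, named after their values were seen, had log2 differences between 1.02 and 1.39 and did not pass. Over all tested genes 4.68% had a log2 difference of at least 1 in size. Ltb4r1 and Fpr2 entered the test through the Ets1-/- mean alone. Myeloid cells express several of these receptors, including Ccr1 and Fpr2, and Adgre1, a macrophage marker, rose from 2.35 and 2.63 FPKM to 23.5 and 37.2 FPKM (adjusted p = 0.00969 from limma). The macrophage gene Csf1r was at 2.35 and 0.999 FPKM in WT and 1.86 and 0.876 FPKM in Ets1-/- libraries, and the part of myeloid RNA in these values was not tested.

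Downstream of the receptors, 26 of 27 genes for G proteins and their effectors were tested, and 0 rose and 0 fell by limma, against 1.7% of all tested genes called. Of the 26, 2 were higher and 11 lower without overlap, against 19.4% and 22.2% of all tested genes, and 1 had an unadjusted p under 0.05, against 13.3%. That gene, named after its values were seen, was Rasgrp2, an activator of Rap1 in integrin-mediated adhesion, at 151 and 167 FPKM in WT and 93.9 and 101 FPKM in Ets1-/- libraries (log2 difference -0.70, adjusted p = 0.116 from limma). Gnai2, the Gi alpha subunit on which chemokine receptors of lymphocytes depend, was the most abundant of the list over the 4 libraries and had a log2 difference of 0.10 (adjusted p = 0.921 from limma). Of 7 genes for receptor desensitisation and internalisation, 0 passed by limma, against 1.7% of all tested genes, and 2 had an unadjusted p under 0.05, against 13.3%. Those were the beta-arrestins Arrb1 and Arrb2, named after their values were seen. Arrb2 was at 43.6 and 43.6 FPKM in WT and 25.2 and 26.5 FPKM in Ets1-/- libraries, a log2 difference of -0.73 (limma adjusted p = 0.0759). Grk2, the kinase that tags active receptors for arrestin binding, was the most abundant of this list at 291 and 267 FPKM in WT and 238 and 308 FPKM in Ets1-/- libraries. Cd69, whose product pulls S1pr1 off the surface, overlapped between the genotypes, at 58.3 and 162 FPKM in WT and 293 and 115 FPKM in Ets1-/- libraries.

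Of 11 transcription factors chosen as regulators of receptor genes, 0 passed by limma, against 1.7% of all tested genes, and 2 had an unadjusted p under 0.05, which is near the 13.3% of all tested genes. Those were Foxo1 and Bcl6, named after their values were seen. Foxo1, a factor that sustains Ccr7, had 51.9 and 51.0 FPKM in WT and 33.6 and 37.6 FPKM in Ets1-/- libraries (adjusted p = 0.180 from limma). Bcl6, the germinal centre factor, had 32.5 and 33.5 FPKM in WT and 21.3 and 24.4 FPKM in Ets1-/- libraries (adjusted p = 0.194 from limma). Klf2, which drives S1pr1, was the most abundant of the list, at 414 and 866 FPKM in WT and 1058 and 1338 FPKM in Ets1-/- libraries, a log2 difference of 0.99 (limma adjusted p = 0.384). The WT replicates of Klf2 differed by more than their distance to the nearest Ets1-/- value.

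**Figure D4:**
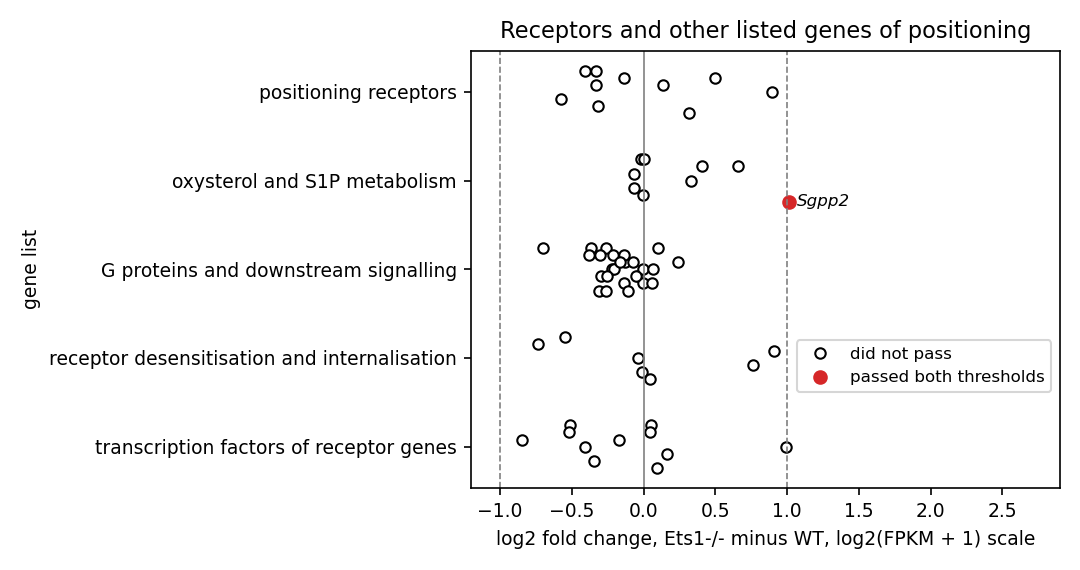
Log2 fold change of every tested gene in the receptor list and 4 related lists, Ets1-/- minus WT on the log2(FPKM + 1) scale, with a filled point for a gene that passed both thresholds and dashed lines at the 2-fold minimum. Sgpp2 is the filled point, and the 10 positioning receptors lie between -0.58 and 0.89.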

How the data were processed

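Each library is described by 1 deposited table of FPKM values per gene symbol. The authors made the FPKM values by aligning reads to mm9 with TopHat2 (2.0.13 per the submitters' processing notes) and estimating expression with Cuffdiff; the annotation and the scaling between libraries are not given in the sources used here. Of 23309 entries 4 with a repeated symbol were left out. Read depth is not in the tables; relative depth was estimated from ratios of values under 0.05 FPKM, where 28.9% to 41.4% of the genes compared lay near the shared ratio. Values were transformed as log2(FPKM + 1), which understates the changes of low genes, and analysed in R 4.3.3 by limma 3.58.1 (lmFit, then eBayes with trend; residual df 2, prior df 3.10), using all 4 libraries, after testing the fit on simulated data. Genes needed a mean of at least 1 FPKM in either genotype.

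The 10 receptors, the related lists and the marker lists were chosen with earlier results of these data known. Named genes are the receptors, some of the called genes and the most abundant gene of each list, genes most like Cxcr4, defining markers, and genes said to be named after their values were seen. Marker lists covered follicular, marginal zone, germinal centre, B-1 and plasma B cells, T, NK, dendritic, erythroid and platelet cells, neutrophils, and monocytes and macrophages. Some results of the listed genes and markers are not reported here. Gene positions are from GENCODE M1 (mm9). Alternatives covered the pseudocount, filter, scaling, variance estimate, replicate block, minimum fold and each replicate left out. Other values were computed with Python 3.11.15, numpy 2.4.6 and pandas 2.3.3.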

Additional observations from a re-analysis of the deposited data

How the results depend on the processing

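The count of receptors changed was 0 under every alternative run. Over all genes 186 were called, and 90 with a pseudocount of 5, 75 with no filter on low values, 106 with a minimum mean of 5 FPKM and 305 with robust variance; leaving out 1 replicate at a time gave 130 to 144. The replicate block gave 266 calls over all genes and 0 receptors, and Sgpp2 then had an adjusted p of 0.0723 from limma. Same-numbered libraries deviated from their genotype means with a correlation of -0.21 across genes, and the crossed pairing as a block, chosen after seeing the data, gave 409 calls over all genes, 7 among the other listed genes and 0 receptors. The other listed genes gave 2 calls, Sgpp2 among them, which became 1 with a pseudocount of 5, 0 with no filter, 1 with a minimum mean of 5 FPKM, 4 with robust variance and 1 whichever replicate was left out. Cxcr4, Ccr7 and S1pr1 stayed higher and Ccr6 and Cxcr5 stayed lower in Ets1-/- cells under all 13 alternatives. Their genotypes did not overlap, so a changed pseudocount or a left-out replicate could not turn the sign. The filter, variance and block settings leave the log2 difference unchanged. Only the changes of scaling could have turned the sign. The log2 difference of Cxcr4 lay between 0.66 and 1.13. With all 4 libraries its adjusted p lay between 0.0442 (crossed pairing) and 0.220 (minimum mean of 5 FPKM) from limma. Log2 differences turned sign with 1 replicate left out for Cxcr3 (-0.089 without WT replicate 1, range to 0.36), Gpr183 (0.0043 without Ets1-/- replicate 2, range from -0.64), S1pr2 (0.058 without WT replicate 2, range from -0.72), S1pr3 (0.056 without WT replicate 2 and 0.0015 without Ets1-/- replicate 2, range from -0.33) and S1pr4 (0.076 without Ets1-/- replicate 1, range from -0.74), and the cause was not tested. Without Ets1-/- replicate 2, 67.7% of calls were higher in Ets1-/- cells against 51.6% with all libraries. A lone library is taken to vary like those of the other genotype.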

Other observations

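The sums of the remaining marker lists are given here as values. Follicular B cell markers summed to 6595 and 6363 FPKM in WT and 5306 and 6323 FPKM in Ets1-/- libraries. B-1 markers summed to 12.4 and 13.5 FPKM in WT and 19.6 and 18.7 FPKM in Ets1-/- libraries, and plasma cell markers to 71.7 and 73.6 FPKM against 59.3 and 91.8 FPKM. Dendritic cell markers summed to 5.26 and 4.39 FPKM in WT and 6.69 and 6.4 FPKM in Ets1-/- libraries. Monocyte and macrophage markers summed to 45 and 29.7 FPKM in WT and 70.7 and 65.1 FPKM in Ets1-/- libraries. Of the 8 of these markers that were tested, 1 was higher without overlap, against 19.4% of all tested genes. That was Adgre1, at 2.35 and 2.63 FPKM in WT and 23.5 and 37.2 FPKM in Ets1-/- libraries. None of the 8 was lower without overlap, against 22.2% of all tested genes. Erythroid markers summed to 6.21 and 3.95 FPKM in WT and 63.5 and 27.5 FPKM in Ets1-/- libraries. Platelet markers summed to 0.917 and 1.01 FPKM in WT and 1.89 and 1.32 FPKM in Ets1-/- libraries.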
